A study of Rattus with 6 samples.

Results

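The core spliceosome genes described here are the protein-coding genes of the count table whose symbols begin with Snrp, Snrnp, Sf3a or Sf3b plus a digit, Prpf plus a digit, Lsm plus a digit, or U2af. The rule found 60 genes among the 21378 in the table. They were measured by poly(A)-selected RNA sequencing of cultured rat cardiac fibroblasts, the cells that make the matrix of the heart, obtained from a commercial supplier. The 3 siCtrl libraries came from control cells, which the labels elsewhere call empty-vector cells, so the exact control agent is not settled. The 3 siNONO libraries came from cells given an siRNA against Nono with Lipofectamine 2000. A harvest time is given for other assays only, and the strain, sex and age of the source animals were not given in the sources used here. NONO binds RNA and DNA in the nucleus and has roles in splicing and transcription. The comparison asks how the mRNA levels of the splicing machinery differ with and without the knockdown. Gene-level counts carry no measure of splicing itself.

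The spliceosome removes introns from pre-mRNA and is built from small nuclear ribonucleoproteins (snRNPs), each a small nuclear RNA with its own proteins. U1 marks the start of an intron, U2AF and U2 mark its end and branch point, and the U4/U6.U5 tri-snRNP then joins and is rearranged into the catalytic enzyme. A ring of Sm proteins holds the U1, U2, U4 and U5 RNAs and a related ring of LSM proteins holds the U6 RNA. Some LSM proteins work elsewhere: LSM1 replaces LSM8 in a cytoplasmic ring that promotes mRNA decay, LSM10 and LSM11 belong to the U7 particle that processes histone mRNA, and LSM14A and LSM14B are RNA-binding proteins of cytoplasmic granules.

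Total counts ranged from 27792357 to 33365588 per library, and 14412 genes passed the filter on low counts. Nono, the targeted gene, had 237, 233 and 247 CPM in the siCtrl and 69.9, 76.1 and 73.6 CPM in the siNONO libraries (CPM are counts scaled to a common library size, here with TMM factors; all per-library values are given in the order of replicates 1, 2 and 3). The siNONO libraries held 30.7% of the control level (edgeR adjusted p = 4.57e-11; p = 0.1 by an exact permutation test, two-sided, the minimum for 3 against 3). All 12 fibroblast markers were detected, with summed levels of 40604 to 43261 CPM in siCtrl and 40333 to 41126 CPM in siNONO. Of 12 cardiomyocyte markers 8 had a row in the count table. The other 4 (Myh7, Nppa, Mb and Myl2) had no row under that symbol. Actn2, Ryr2 and Ttn had at most 3 counts in every library. The sum of the list, 97.8% of it from Tnnt2, was 146 to 163 CPM in siCtrl and 110 to 119 CPM in siNONO. Summed markers of endothelium (9 genes, Emcn at the limit of 3 counts and Cldn5 without a row) were 17.6 to 19.0 against 20.1 to 21.2 CPM. Those of smooth muscle and pericytes (8 genes, Rgs5 at that limit) were 114 to 122 against 102 to 106 CPM. Those of epicardium and mesothelium (6 genes, Krt19 at that limit) were 81.1 to 87.3 against 94.8 to 97.2 CPM. Macrophage and leukocyte markers (10 genes, Cd3e without a row and Cd79a at that limit) were 409 to 455 against 386 to 410 CPM. The part of such cells in the results below was not tested. In bulk libraries fewer cells of a type and less RNA per cell cannot be told apart.

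Most core spliceosome genes showed small differences between siNONO and siCtrl, and 8 had a call that every alternative kept. The share of all tested genes with such a call is not given here, so 8 cannot be read as many or few. Of the 60 genes, 58 passed the filter and were tested. At a Benjamini-Hochberg adjusted p below 0.05 (edgeR, quasi-likelihood), 7 of them (12.1%) rose and 8 (13.8%) fell, while 16.2% of all tested genes rose and 15.9% fell. Values of the groups did not overlap for 9 genes that were higher in siNONO (15.5%, against 22.9% of all tested genes) and for 12 that were lower (20.7%, against 22.1%). Over the 58 genes the median log2 fold change, siNONO minus siCtrl, was 0.01, and over all tested genes it was 0.00. The median absolute log2 fold change was 0.07, beside 0.15 for all tested genes. The members were also more abundant per length, with a median of 20.7 FPKM in siCtrl against 4.44 FPKM for all tested genes, and the part of abundance in this smaller spread of changes was not tested. The standard error (SE) of a member's log2 fold change had a median of 0.06, the smallest called change was 0.14 and the largest uncalled one 0.20. With scaling by total library size the split was 11 raised and 4 lowered, and for all genes 3174 and 1673. The number raised was 4 without siNONO replicate 2, and leaving out siCtrl replicate 1, siNONO replicate 1 or siNONO replicate 3 gave 5, 4 and 5 lowered. Without both siCtrl replicate 1 and siNONO replicate 2, a pair chosen after the data were seen, 7 rose and 9 fell. For all genes these counts were 2257 and 2257.

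**Figure D1:**
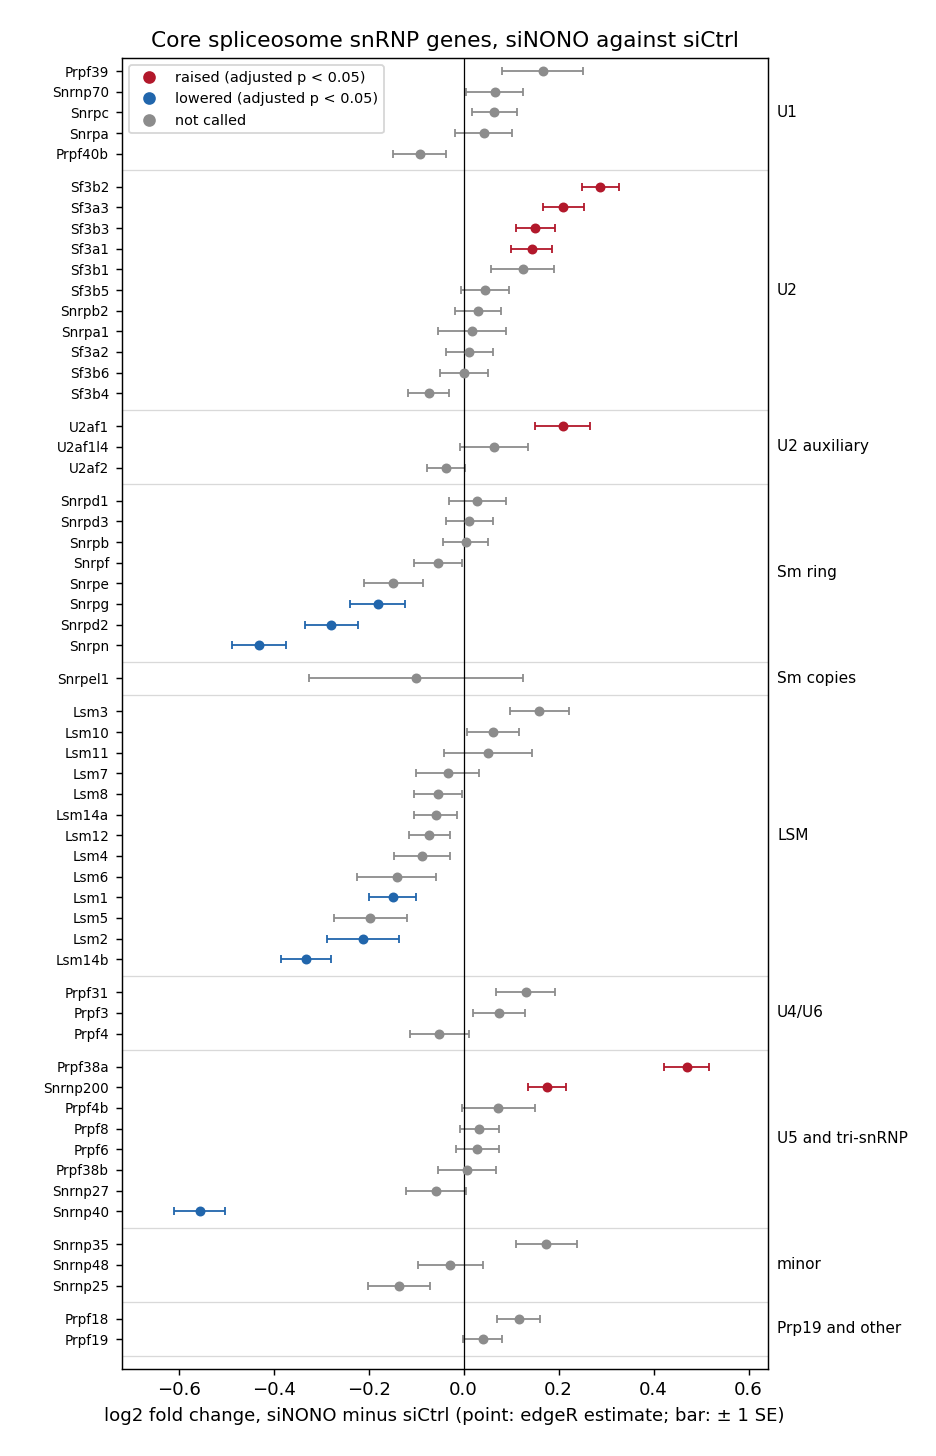
Log2 fold change, siNONO minus siCtrl, for 57 tested core spliceosome genes, grouped by role; points are edgeR estimates, bars are 1 SE, red marks 7 raised and blue 7 lowered genes. Nearly all grey points lie close to 0, Prpf38a lies farthest to the right (0.47) and Snrnp40 farthest to the left (-0.56).

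The 8 genes whose calls held under all 22 alternatives were Prpf38a, Sf3b2, Sf3a3 and Snrnp200, which rose, and Snrnp40, Snrpn, Lsm14b and Snrpd2, which fell. Lsm14b encodes a protein outside the snRNPs. The other 7 were grouped with U2, the Sm ring or U5 and its tri-snRNP partners, the last of which held both the largest rise and the largest fall. The log2 fold changes of Snrnp40, Prpf38a, Snrpn, Lsm14b, Sf3b2 and Snrpd2 had an absolute size of at least that of a 1.2-fold change.

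**Figure D2:**
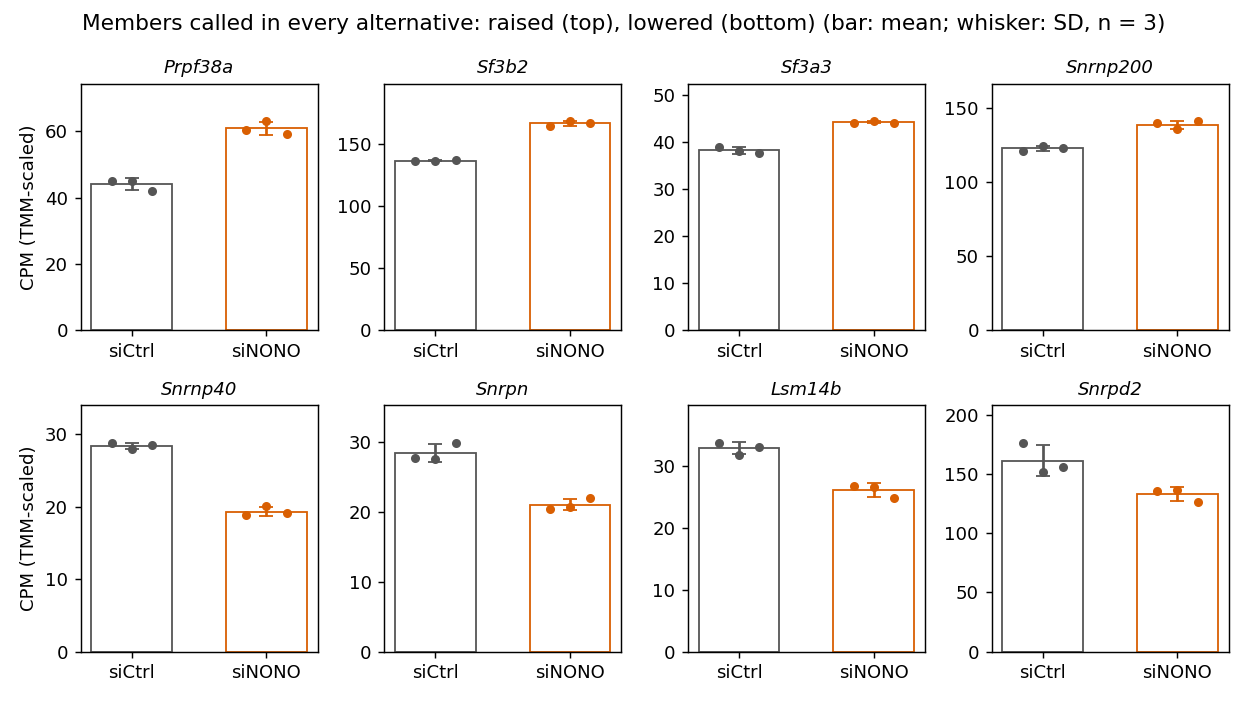
TMM-scaled CPM of the 8 genes called under every alternative, with raised genes above and lowered genes below; dots are libraries (replicates 1, 2 and 3 from left to right), bars the mean and whiskers the SD (n = 3). In each panel all 3 siNONO dots lie on one side of the 3 siCtrl dots, as for Prpf38a at 59.3 to 63.1 CPM against 42.0 to 45.1 CPM.

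In control cells the members spanned a wide range of levels per length. Compared as FPKM, in which the authors divided by library size and gene length, the highest control means were those of the Sm ring genes Snrpd2 (267 ± 18.0 FPKM), Snrpe (214 ± 16.5 FPKM) and Snrpg (188 ± 12.3 FPKM; SD, n = 3 each). The remaining Sm genes followed at 68.6 ± 2.94 FPKM for Snrpf, 59.2 ± 2.56 FPKM for Snrpd3, 46.4 ± 2.53 FPKM for Snrpd1 and 30.1 ± 1.61 FPKM for Snrpb. Snrpn, which encodes SmN, a paralog of the SmB protein of Snrpb, was lowest of the 8 at 17.6 ± 0.868 FPKM. Neighbours in this order differed beyond the range of their 3 control libraries except Snrpe and Snrpg, whose ranges touched (201 to 232 and 178 to 202 FPKM). All 8 encode Sm ring proteins, yet their mRNA values per length differed, and the 3 highest belonged to the 3 shortest gene models among them (459 to 592 bases). Gene model lengths, recovered from counts and FPKM, reached 16790 bases for Prpf18, 12314 bases for Prpf40b and 4475 bases for Lsm6, and the FPKM values of these genes were 2.65 ± 0.0436, 1.88 ± 0.0361 and 1.82 ± 0.0153.

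Among the other particles, the most abundant control mRNA per length of U2 was Sf3b5 (84.1 ± 2.61 FPKM), of U1 Snrnp70 (53.1 ± 4.94 FPKM), of U2AF U2af1 (52.6 ± 3.39 FPKM) and of the LSM genes Lsm1 (41.1 ± 1.30 FPKM), whose libraries overlapped those of Lsm7 (39.6 ± 2.85 FPKM). Prpf19, the ubiquitin ligase of the Prp19 complex, stood at 40.0 ± 1.28 FPKM, Prpf6, a scaffold of the tri-snRNP, at 24.5 ± 0.915 FPKM, Snrnp35 of the minor spliceosome at 17.8 ± 1.29 FPKM and the U4/U6 gene Prpf31 at 11.3 ± 0.412 FPKM. The lowest tested member was Lsm11 of the U7 particle at 1.36 ± 0.0755 FPKM.

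**Figure D3:**
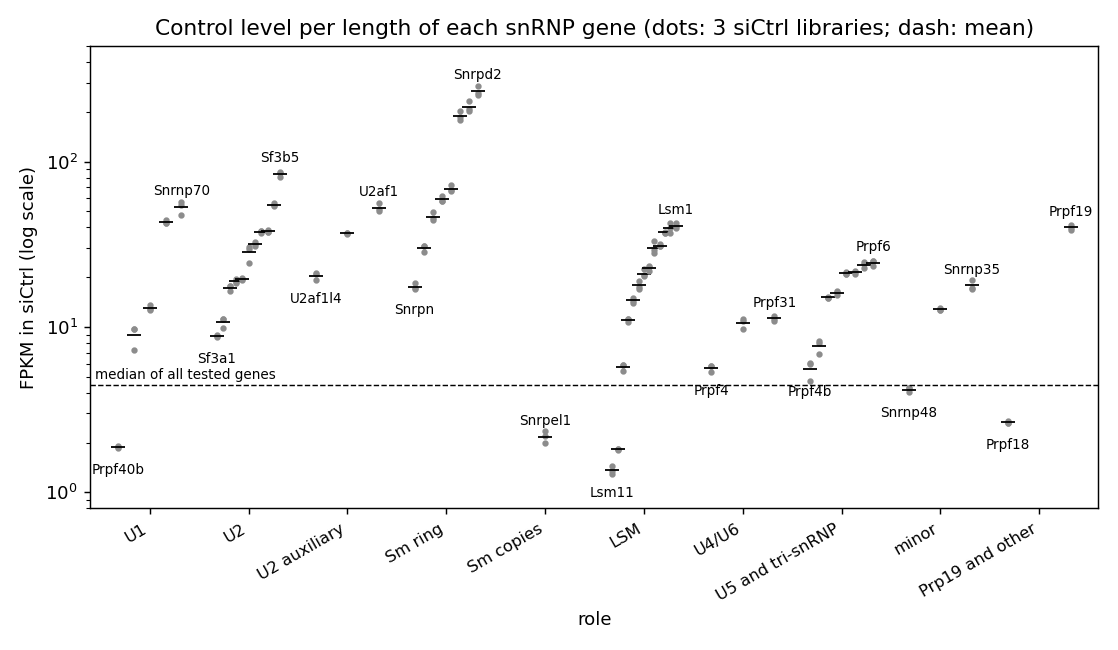
FPKM of 57 tested members in the 3 siCtrl libraries (dots) with their mean (dash), by role, on a log axis; the dashed line is the median of all tested genes (4.44 FPKM). Sm ring genes reach the highest values, up to 267 FPKM for Snrpd2, and the lowest member is Lsm11 at 1.36 FPKM.

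Of the 5 genes for U1 proteins and U1-associated factors described here, 0 passed (0 with an unadjusted p under 0.05, and 0 by DESeq2 and by limma-voom). The U1-70K gene Snrnp70 had 230, 270 and 257 CPM in siCtrl and 285, 253 and 255 CPM in siNONO, so the groups overlapped and siCtrl replicate 1 was the lowest library (log2 fold change 0.07 ± 0.06, SE; edgeR adjusted p = 0.438). Snrpa (0.04 ± 0.06) and Snrpc (0.06 ± 0.05), which encode the U1 A and C proteins, did not pass. Snrpc passed with a gene length correction (0.11; edgeR adjusted p = 0.0346) and on log2(FPKM + 1) (0.11; limma adjusted p = 0.0396). Prpf40b had -0.09 ± 0.06 and the U1-associated factor gene Prpf39 0.17 ± 0.09, and neither passed. Prpf39 ranged from 29.6 CPM in siCtrl replicate 1 to 42.9 CPM in siNONO replicate 1, while the other siCtrl libraries had 38.9 and 39.2 CPM; it passed with no filter (0.17; edgeR adjusted p = 0.0141), as did Sf3b1 of U2 (0.13; 0.0323).

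U2 was the particle with the most raised members. Of its 11 genes 4 rose (36.4%, against 16.2% of all tested genes; 3 by DESeq2) and 0 fell (against 15.9%; 0 with an unadjusted p under 0.05, and 0 by DESeq2 and by limma-voom). All 4 belong to SF3A and SF3B, the subcomplexes that hold U2 on the branch point. Sf3b2, an SF3B subunit, had 136, 136 and 137 CPM in siCtrl and 165, 169 and 167 CPM in siNONO. The gap between the groups was many times the spread within either, and the estimate was 0.29 ± 0.04 (edgeR adjusted p = 6.79e-05). Sf3a3 had 38.9, 38.1 and 37.6 CPM against 44.1, 44.4 and 44.0 CPM, again without overlap (0.21 ± 0.04; adjusted p = 0.00227).

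Both further rises of U2 were smaller and less stable. Sf3b3, the large beta-propeller subunit of SF3B, had 86.9, 91.0 and 91.4 CPM in siCtrl and 98.4, 102 and 98.8 CPM in siNONO (0.15 ± 0.04; edgeR adjusted p = 0.0133), and its call ended without siNONO replicate 2 (adjusted p = 0.0550) and without both that library and siCtrl replicate 1 (0.0591). Sf3a1 had 49.5, 48.8 and 49.9 CPM against 55.1, 55.5 and 53.2 CPM (0.14 ± 0.04; edgeR adjusted p = 0.0207). No siNONO library of either gene fell within the control range. For Sf3a1 the adjusted p was 0.0581 without siCtrl replicate 2, and the call was also lost without siNONO replicate 1 (0.0876), without siNONO replicate 2 (0.0712) and with the DESeq2 Wald test (0.0624).

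Subunits of the same subcomplexes did not all move together. Sf3b1, which contacts the branch site directly, had 180, 219 and 214 CPM in siCtrl and 236, 209 and 224 CPM in siNONO, with overlapping groups and the lowest value in siCtrl replicate 1 (0.12 ± 0.07; edgeR adjusted p = 0.173). Sf3a2 (0.01 ± 0.05), Sf3b5 (0.04 ± 0.05) and Sf3b6 (0.00 ± 0.05), the last encoding the subunit beside the branch adenosine, did not pass. Sf3b5, with 69.1, 68.0 and 64.6 CPM in siCtrl and 67.0, 73.9 and 67.0 CPM in siNONO, passed only with the gene length correction, alone (0.14; edgeR adjusted p = 0.0133) or with the replicate block (0.14; 0.0251). Sf3b4 was lower in every siNONO library but did not pass (-0.07 ± 0.04; adjusted p = 0.207). Snrpa1 (0.02 ± 0.07) and Snrpb2 (0.03 ± 0.05), which encode the U2 A' and B'' proteins that bind U2 RNA itself, did not pass either. Summed over the 11 genes, U2 took 782, 812 and 807 CPM in siCtrl and 881, 866 and 865 CPM in siNONO.

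Of the U2AF genes, 1 of 3 rose (33.3%, against 16.2% of all tested genes). U2af1, whose protein reads the AG at the end of the intron, had 65.6, 56.5 and 58.7 CPM in siCtrl and 71.2, 72.3 and 65.3 CPM in siNONO. The groups overlapped, since siCtrl replicate 1 lay just above siNONO replicate 3, and the log2 fold change was 0.21 ± 0.06 (edgeR adjusted p = 0.0148). No call remained when siCtrl replicate 2 (adjusted p = 0.0628) was left out, nor siCtrl replicate 3 (0.0563), siNONO replicate 1 (0.0743) or siNONO replicate 2 (0.0626). U2af2, whose protein binds the polypyrimidine tract and pairs with U2AF1, had 144, 142 and 144 CPM against 143, 138 and 137 CPM (-0.04 ± 0.04; adjusted p = 0.516). The U2af1 paralog U2af1l4 had 0.06 ± 0.07 and did not pass.

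Sm ring genes were lowered or did not pass. Of 8 tested, 3 fell (37.5%, against 15.9% of all tested genes and 20.6% of those with gene models under 2000 bases) and 0 rose (0 with an unadjusted p under 0.05, and 0 by DESeq2 and by limma-voom). Snrpn had 27.8, 27.5 and 29.9 CPM in siCtrl and 20.5, 20.8 and 22.0 CPM in siNONO, a fall to well below the control range (-0.43 ± 0.06; edgeR adjusted p = 6.47e-05). Snrpb, its paralog, had 110, 107 and 98.1 CPM against 106, 102 and 107 CPM, with overlapping groups (0.00 ± 0.05; adjusted p = 0.962). Whether reads that both paralogs share were divided between them is not given in the sources used here, so this pair is uncertain. Paralog pairs among the members were compared after their values were seen, 4 in all, of which 3 are given. The FPKM of Snrpn was 54.4%, 55.4% and 65.6% of that of Snrpb in siCtrl and 41.4%, 43.7% and 44.2% in siNONO (p = 0.1 by the exact permutation test, two-sided, and 0.133 adjusted over the 4 pairs).

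Snrpd2, the most abundant Sm mRNA, had 176, 152 and 156 CPM in siCtrl and 136, 136 and 126 CPM in siNONO, without overlap (-0.28 ± 0.06; edgeR adjusted p = 0.00176). With the gene length correction the log2 fold change was -0.15. Snrpg had 95.9, 82.2 and 86.2 CPM against 76.4, 82.3 and 74.5 CPM, where siNONO replicate 2 lay within the control range (-0.18 ± 0.06; adjusted p = 0.0282). With the gene length correction Snrpg had -0.03 (adjusted p = 0.539), and its call also ended without siCtrl replicate 1 (0.0921), siNONO replicate 1 (0.103) or siNONO replicate 3 (0.117), with total library size (0.0760) and on log2(FPKM + 1) (limma adjusted p = 0.103). Snrpe (-0.15 ± 0.06; adjusted p = 0.0834) passed only without siCtrl replicate 2 (0.0336), without siNONO replicate 2 (0.0391), without both siCtrl replicate 1 and siNONO replicate 2 (0.0418) and with no filter (0.0203). With the gene length correction its log2 fold change was 0.00 (edgeR adjusted p = 0.974), and without siCtrl replicate 1 it was -0.07 (0.309). Snrpd1 (0.03 ± 0.06), Snrpd3 (0.01 ± 0.05) and Snrpf (-0.05 ± 0.05) did not pass. The summed Sm level was 735, 653 and 663 CPM in siCtrl and 625, 648 and 608 CPM in siNONO, with siCtrl replicate 1 highest.

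The table also lists copies of Sm genes. Snrpel1 was tested at 1.09 ± 0.0900 CPM in siCtrl and 1.01 ± 0.170 CPM in siNONO and did not pass (-0.10 ± 0.23). Snrpd2l had 2 to 8 counts in each library and Snrpep2 0 to 2, so both stayed below the filter and were not tested. RefSeq's annotation of assembly GRCr8 lists Snrpel1 and Snrpd2l as pseudogenes and holds no entry named Snrpep2. Further rows described as copies of Snrpe, Snrpg, Lsm5 or Lsm7 held at most 60 counts per library, the largest of them 5.56% of the counts of Lsm7. Reads from such short, nearly identical sequences could have been assigned to either row or left out, so Snrpe, Snrpg, Lsm5 and Lsm7 are uncertain to that extent.

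Of 13 LSM genes, 3 fell (23.1%, near the 15.9% of all tested genes, and 1 by DESeq2). By edgeR 0 rose (1 with an unadjusted p under 0.05, and 0 by DESeq2 and by limma-voom). LSM gene models ran from 587 to 6956 bases, with 2931 for Lsm14b. Among all tested genes with gene models under 2000 bases 20.6% fell, and 16.0% with 2000 to 5000 bases. Lsm14b, outside the rings, had 33.8, 31.8 and 33.1 CPM in siCtrl and 26.9, 26.7 and 24.9 CPM in siNONO (-0.33 ± 0.05; edgeR adjusted p = 0.000285). Every siNONO library lay below every control. Its paralog Lsm14a had 67.0, 71.6 and 66.3 CPM against 65.7, 63.9 and 67.1 CPM, with overlap (-0.06 ± 0.05). The FPKM of Lsm14b was 52.6% ± 3.62 of that of Lsm14a in siCtrl and 43.5% ± 2.67 in siNONO (± SD over 3 libraries; p = 0.1 by the exact permutation test). The same ratio was 38.8% ± 2.01 and 35.1% ± 1.59 for U2af1l4 to U2af1 (exact permutation p = 0.1).

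Within the ring that holds U6 RNA, Lsm2 to Lsm8, 1 of 7 genes fell (14.3%, near the 15.9% of all tested genes) and the sign was not uniform. Lsm2 had 15.4, 15.8 and 14.8 CPM in siCtrl and 12.4, 14.4 and 12.7 CPM in siNONO (-0.21 ± 0.08; edgeR adjusted p = 0.0444), close to the threshold. Its call ended in 5 of the 6 fits without 1 library: without siCtrl replicate 1 (adjusted p = 0.0739), 2 (0.115) or 3 (0.0584) and without siNONO replicate 1 (0.160) or 3 (0.139). It also ended with the gene length correction (0.132), with total library size (0.114), with DESeq2 (0.0815) and on log2(FPKM + 1) (limma adjusted p = 0.0678). Lsm3 went the other way, at 18.7, 18.4 and 17.3 CPM against 20.0, 21.1 and 19.5 CPM, without overlap (0.16 ± 0.06; adjusted p = 0.0660). It passed with the gene length correction (0.26; adjusted p = 0.00262), with total library size (0.21; 0.0186) and on log2(FPKM + 1) (0.20; limma adjusted p = 0.00826). Lsm5 (-0.20 ± 0.08) and Lsm6 (-0.14 ± 0.08) were lower in every siNONO library without passing, and Lsm5 passed without siCtrl replicate 3 (-0.25; edgeR adjusted p = 0.0380) and with no filter (-0.19; 0.0413). Lsm4 (-0.09 ± 0.06), Lsm7 (-0.03 ± 0.07) and Lsm8 (-0.05 ± 0.05) did not pass.

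Lsm1, of the cytoplasmic decay ring, had 58.8, 55.1 and 54.1 CPM in siCtrl and 51.4, 51.9 and 48.1 CPM in siNONO, without overlap (-0.15 ± 0.05; edgeR adjusted p = 0.0331). That call was lost without siCtrl replicate 1 (adjusted p = 0.0961), siNONO replicate 1 (0.0678) or siNONO replicate 3 (0.144), with the gene length correction (0.0554), with total library size (0.135), with DESeq2 (0.0527) and on log2(FPKM + 1) (limma adjusted p = 0.0974). The U7 genes Lsm10 (0.06 ± 0.05) and Lsm11 (0.05 ± 0.09) and the RNA-binding protein gene Lsm12 (-0.07 ± 0.04) did not pass. Over the 13 LSM genes the summed level was 440, 424 and 422 CPM in siCtrl and 399, 412 and 399 CPM in siNONO.

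**Figure D4:**
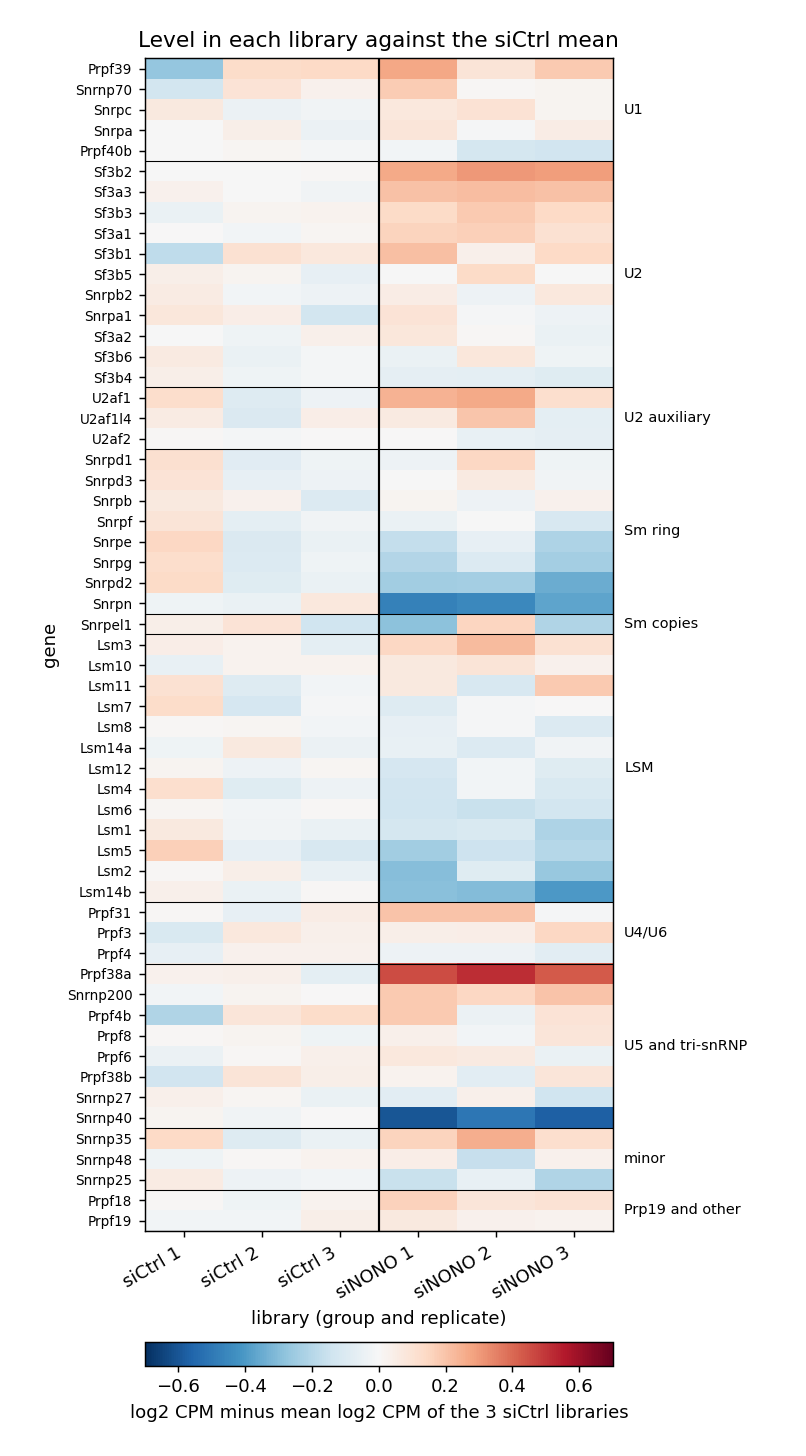
Log2 CPM of 57 tested members in each of the 6 libraries minus its mean log2 CPM over the 3 siCtrl libraries, by role; red is higher and blue lower. Snrnp40, Snrpn and Lsm14b are blue and Prpf38a and Sf3b2 red in all 3 siNONO columns, while siCtrl replicate 1 is blue for Prpf39, Sf3b1 and Prpf4b, in contrast to the other siCtrl columns.

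The genes grouped here under U5, the tri-snRNP and factors that join it held the members that moved most, Prpf38a and Snrnp40. Of 8 genes 2 were raised and 1 lowered (25.0% and 12.5%, near the 16.2% and 15.9% of all tested genes). Prpf38a, a factor that joins with the tri-snRNP and is needed to activate the spliceosome, had 45.0, 45.1 and 42.0 CPM in siCtrl and 60.5, 63.1 and 59.3 CPM in siNONO. It rose by 38.5% (log2 fold change 0.47 ± 0.05; edgeR adjusted p = 5.98e-06). Its relative Prpf38b had 39.7, 46.2 and 44.8 CPM against 44.2, 41.3 and 46.1 CPM, with full overlap (0.01 ± 0.06; adjusted p = 0.940).

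Snrnp40, which encodes the WD40-repeat protein of U5, had 28.8, 28.0 and 28.5 CPM in siCtrl and 18.8, 20.0 and 19.1 CPM in siNONO. Knockdown libraries thus kept 68.0% of the control mean (log2 fold change -0.56 ± 0.05; edgeR adjusted p = 4.23e-06). Snrnp200, the helicase that unwinds U4 from U6, had 121, 124 and 123 CPM against 140, 136 and 141 CPM, without overlap (0.18 ± 0.04; adjusted p = 0.00376). Their U5 partner Prpf8, the scaffold of the catalytic center, had 177, 178 and 173 CPM against 180, 174 and 186 CPM (0.03 ± 0.04; adjusted p = 0.581). Prpf6 had 81.1, 83.7 and 85.3 CPM against 87.7, 87.0 and 80.7 CPM (0.03 ± 0.05). The protein kinase gene Prpf4b (0.07 ± 0.08) and Snrnp27 (-0.06 ± 0.06) did not pass.

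U4/U6 genes, minor spliceosome genes and the remaining Prp genes did not pass: 0 of these 8 rose or fell by edgeR, DESeq2 or limma-voom, though Snrnp35 and Prpf18 had an unadjusted p under 0.05. Prpf31, which bridges U4 RNA and U5, had 30.5, 29.1 and 31.5 CPM in siCtrl and 34.8, 34.8 and 30.1 CPM in siNONO (0.13 ± 0.06; edgeR adjusted p = 0.125). It passed without siNONO replicate 3 (0.20; adjusted p = 0.0254), the library that overlapped the controls, and with total library size (0.18; 0.0362). Prpf3 (0.07 ± 0.06) and Prpf4 (-0.05 ± 0.06), which bind each other on U4/U6, did not pass. Snrnp35, a U11/U12 protein gene for the rare introns of the minor class, had 28.9, 24.6 and 25.4 CPM against 29.3, 31.2 and 28.4 CPM (0.17 ± 0.07; adjusted p = 0.0548), and passed without siCtrl replicate 1 (0.25; 0.00520), with the gene length correction (0.21; 0.00500), with total library size (0.23; 0.0121) and in further fits. Snrnp25 (-0.14 ± 0.07) and Snrnp48 (-0.03 ± 0.07) did not pass. Prpf18, which acts in the second step of splicing, was higher in every siNONO library, at 50.7, 48.0 and 48.6 CPM, than in any control library, at 45.5, 44.4 and 46.0 CPM (0.12 ± 0.04; adjusted p = 0.0633), and passed with total library size (0.17; 0.0146). Prpf19 had 97.8, 97.8 and 102 CPM against 104, 101 and 101 CPM (0.04 ± 0.04).

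The direction of change followed gene model length in part, and 2 libraries stood apart by it. Across the 58 tested members, Spearman's rho between log2 fold change and gene model length was 0.32, beside 0.11 across all 14151 tested genes with a length, as a description of genes that share the same 6 libraries. The deviation of a library from its group mean had a rho with length of -0.69 in siCtrl replicate 1 and -0.72 in siNONO replicate 2 across the members, and 0.48 to 0.59 in the other 4 libraries. Short members such as Snrpe and Snrpg were thus highest within their group in these 2 libraries. Without siCtrl replicate 1 rho between log2 fold change and length was 0.13. With the gene length correction it was -0.06, and 11 members rose and 5 fell (2521 and 2552 of all tested genes). The correction was fitted over all tested genes with a length and removes their trend with length between libraries, also between the groups. A rho near 0 over all these genes (-0.01) was thus fixed in advance. For the members it was not fixed, but the same offsets shifted their values, so no conclusion is drawn from it. Sm ring and LSM genes had a median gene model of 1271 bases and a median log2 fold change of -0.07 (6 of 21 lowered, 28.6%, and 0 raised). The 36 members outside these families and the copies had 2810 bases and 0.04 (7 raised, 19.4%, and 2 lowered, 5.56%). Of all tested genes 16.2% were raised and 15.9% lowered. Among members with gene models under 2000 bases, 3 of 30 rose and 6 fell, where 11.0% and 20.6% of all tested genes of that length did. The correction cannot tell a technical trend from a knockdown change that follows length. The part of length in these differences was not tested.

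**Figure D5:**
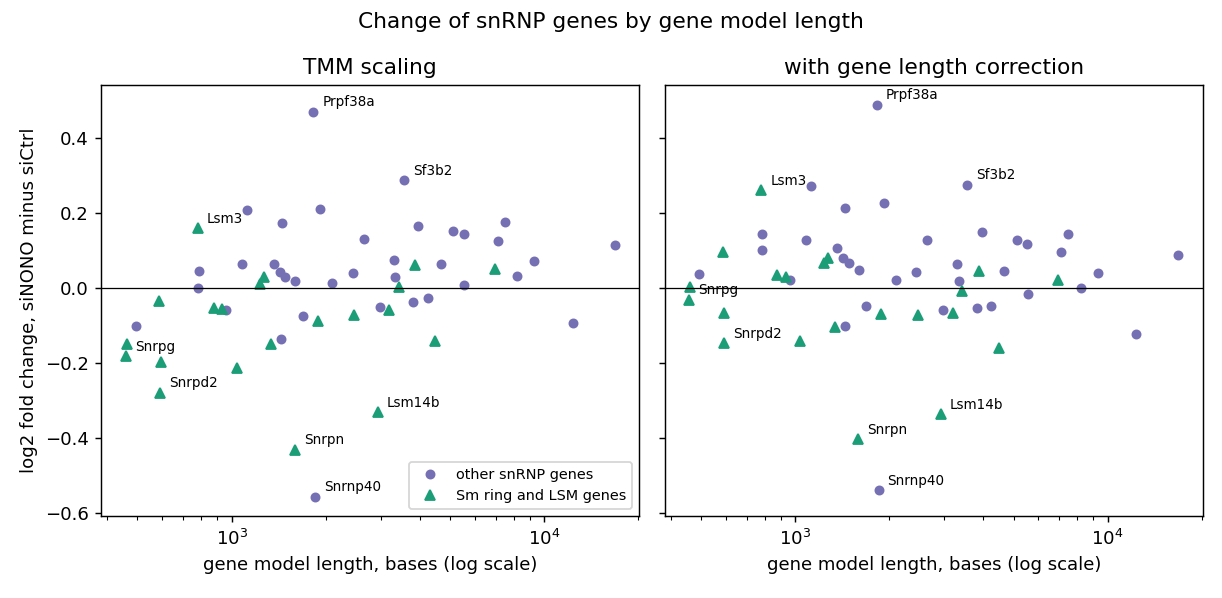
Log2 fold change, siNONO minus siCtrl, of 57 tested members against gene model length (log axis), with TMM scaling on the left and the gene length correction on the right; triangles are Sm ring and LSM genes, circles the rest. Short triangles shift upward with the correction, some toward 0, as Snrpg (-0.18 to -0.03), and some away from it, as Lsm3 (0.16 to 0.26). Snrnp40, Prpf38a, Snrpn and Lsm14b stay apart from the rest.

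Other genes of the splicing pathway, in 9 lists by role, were raised more often than lowered. Of 167 tested, 34 rose (20.4%) and 6 fell (3.59%), and their median log2 fold change was 0.06 (for all tested genes these are 16.2%, 15.9% and 0.00). The counts were 23 and 4 with DESeq2, 53 and 3 with total library size, 21 and 3 without siNONO replicate 1, 18 and 3 without siNONO replicate 3, and 37 and 7 with the gene length correction. The list with the most raised genes was the Prp19 complex and its partners, which reshape the active site. That list had 10 of 36 raised (27.8%, and 8 by DESeq2). By edgeR 0 fell (0 with an unadjusted p under 0.05, and 0 by DESeq2 and by limma-voom). In it the cyclophilin-related gene Ppil4 went from 32.6 ± 1.56 to 42.8 ± 2.12 CPM (0.39 ± 0.05; edgeR adjusted p = 7.81e-05) and the second-step factor gene Slu7 from 38.3 ± 1.67 to 47.3 ± 0.268 CPM (0.30 ± 0.05; 0.000236).

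Among direct partners of the tri-snRNP, 4 of 16 rose (25.0%) and 2 fell (12.5%), where 16.2% and 15.9% of all tested genes did. Sart1 (0.29 ± 0.05), which helps the tri-snRNP join, and Aar2 (0.22 ± 0.06), an assembly factor that holds PRPF8, rose. Tssc4, which assists U5 assembly, went from 41.3 ± 1.03 to 30.7 ± 0.347 CPM (-0.43 ± 0.05; edgeR adjusted p = 9.92e-06), and Snu13 (-0.15 ± 0.05), whose protein binds U4 RNA, fell but lost its call without 1 library (adjusted p up to 0.0944). Of 13 further spliceosomal helicase genes, 15.4% rose and 7.69% fell. Dhx38 (0.28 ± 0.05) and Ddx42 (0.27 ± 0.05) rose and Ddx41 (-0.29 ± 0.05) fell. Of 23 U1- and U2-associated genes 4 rose (17.4%) and 1 fell (4.35%), and by DESeq2 1 and 0. Fubp1 (0.21 ± 0.05) and U2surp (0.17 ± 0.06, edgeR adjusted p = 0.0490, and up to 0.175 without 1 library) were among those raised. Rbmx was lowered (-0.16 ± 0.05, edgeR adjusted p = 0.0417, and up to 0.209 without 1 library).

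Genes that build snRNPs moved in the same small range. The shares of the lists that follow are to be read beside 16.2% raised and 15.9% lowered of all tested genes. Of 15 genes of the SMN and PRMT5 complexes, which load Sm proteins onto small nuclear RNAs, 3 rose (20.0%, and 1 by DESeq2). By edgeR 0 fell (1 with an unadjusted p under 0.05, and 0 by DESeq2 and by limma-voom). Gemin5, which recognizes the RNA, led the rises (0.34 ± 0.06, edgeR adjusted p = 0.00103). It went from 23.9 ± 0.741 to 30.3 ± 2.51 CPM. Gemin4 followed (0.20 ± 0.06, with adjusted p up to 0.0855 without 1 library). Of 36 genes for small nuclear RNA synthesis, capping and transport, 7 rose (19.4%) and 1 fell (2.78%), and by DESeq2 3 and 1. The Integrator gene Ints2 (0.37 ± 0.09) and Ice1 (0.21 ± 0.06, with adjusted p up to 0.0883 without 1 library) rose most. The cap-binding gene Ncbp2 (-0.20 ± 0.04) fell. Of 10 further minor spliceosome genes Pdcd7 (0.23 ± 0.07, with adjusted p up to 0.0684 without 1 library) rose and Armc7 (-0.30 ± 0.09, up to 0.108) fell. The exon junction gene Casc3 (0.41 ± 0.07) was the 1 of 10 of its list that rose. Among 8 decay partners of the cytoplasmic LSM ring 2 rose (25.0%). They were the exonuclease gene Xrn1 (0.37 ± 0.06) and the helicase gene Ddx6 (0.17 ± 0.05, with adjusted p up to 0.102 without 1 library). In both of these lists 0 fell (1 in each with an unadjusted p under 0.05, and 0 by DESeq2 and by limma-voom).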

How the data were processed

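Raw read counts per gene, whole numbers per the values, and FPKM were deposited by the authors. HISAT2, edgeR and genome build mRatBN7.2 are named in the submitters' processing notes. Software versions, the read counter and whether it used strand were not given in the sources used here, so overlapping and antisense genes are uncertain. The deposited FPKM, divided by the authors by library size and gene length, served for levels between genes and for alternatives. There were 0 columns of other samples.

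Samples were grouped by title, 3 libraries each. Libraries of a group differed beyond counting noise (chi-square per degree of freedom 3.18 to 7.58). The labels do not say that replicates were separate cultures, so p-values reflect no more than the spread among these 6 libraries, possibly technical.

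Fits were run in R 4.3.3 using edgeR 4.0.16 (filterByExpr, TMM, glmQLFit, glmQLFTest, 4 residual degrees of freedom), limma 3.58.1 and DESeq2 1.42.0, and p-values were adjusted by Benjamini-Hochberg over all 14412 genes tested. SE is the log2 fold change over the square root of F. Libraries with 0 counts of a gene allow up to 3 counts, 0.0899 to 0.108 CPM (counting error only). Gene model length was recovered by dividing counts by FPKM and library total for genes of sufficient FPKM (98.2% of tested genes). The length correction was a loess offset per library, fitted to deviations from the mean over all libraries of both groups. The edgeR fit at its main settings, limma-voom and DESeq2 were tested on simulated data. The length correction, replicate block, robust fit, other scalings and filters and the FPKM fits were not. Figures were drawn with matplotlib 3.10.9.

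The members, roles and lists were chosen with earlier results of these data known. The naming rule gave per-library values to the 8 largest rises and falls past the threshold (7 rose) and to the most abundant gene of each role, and named up to 2 raised and 2 lowered genes of each of the 9 further lists; any member could be named. Alternatives were other scalings, filters, tests, a replicate block, the length correction, FPKM with pseudocounts 1 and 0.1, a threshold of 0.01 and leaving out libraries. The results of 1 tested member are not reported here by name or drawn; it stays in the counts over all members.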

Additional observations from a re-analysis of the deposited data

How the results depend on the processing

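Members that were called kept their direction under all 22 alternatives, 8 of 15 kept their call in each, and 58 of their 330 alternative values missed the threshold. Of the 946 alternative values of members not called, 32 passed, and 69 changed sign without passing, with an absolute log2 fold change of at most 0.10. Counts of members raised and lowered (7 and 8) were 11 and 5 with the gene length correction, 11 and 4 with total library size, 4 and 4 at a threshold of 0.01, and 10 and 4 on log2(FPKM + 1), on log2(FPKM + 0.1) and with at least 1 FPKM in 3 libraries. The cause was not tested. The members' median log2 fold change (0.01) was 0.0368 with the length correction and 0.0636 with total library size. It was 0.0579 on log2(FPKM + 1) with or without a minimum of 1 FPKM in 3 libraries, and 0.0622 on log2(FPKM + 0.1). The median of all tested genes (0.00) moved as well, to 0.0535 with total library size and 0.0494 on log2(FPKM + 0.1). On log2(FPKM + 1) it was 0.0316, with that minimum 0.0443, and with the length correction 0.0012. Over all genes, 1428 rose and 1424 fell at 0.01, 2521 and 2552 with the length correction, and 3174 and 1673 with total library size. These counts were 2829 and 1546 on log2(FPKM + 1), and 2820 and 1566 on log2(FPKM + 0.1). With at least 1 FPKM in 3 libraries they were 2687 and 1424. For the other spliceosome genes (34 and 6) the counts were 53 and 3 with total library size and 14 and 3 at 0.01.

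Without 1 library, 4 to 8 members rose and 4 to 9 fell, and their median ranged from 0.00 to 0.02. In these fits 18 to 31 other spliceosome genes rose and 3 to 7 fell. For all genes the ranges were 1675 to 2243 raised and 1694 to 2143 lowered. Same-numbered libraries did not deviate together (correlations of -0.08, -0.14 and -0.00 for replicates 1, 2 and 3), so the numbers are not taken as pairs. With the replicate block 6 members rose and 5 fell, and 24 and 4 of the other spliceosome genes (1894 and 1863 of all tested genes). With both the block and the length correction 9 members rose and 5 fell (2189 and 2213 of all tested genes). Depth limits Snrpel1 most, with 27 to 40 counts per library and an SE of 0.23.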
